A study of Rattus norvegicus with 12 samples.

Results

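Oxidative phosphorylation genes were followed in 12 liver RNA-seq libraries of Sprague Dawley rats. The genes were the protein-coding rows of the deposited table that lie on chromosome M, the mitochondrial genome, or whose symbols start with Nduf, Sdha to Sdhd, Uqcr, Cox4i, Cox5, Cox6, Cox7, Cox8 or Atp5. This rule gave 108 of the 40154 genes in the table, 13 on chromosome M and 95 in the nuclear genome. By role they were 45 genes of complex I, 4 of complex II, 9 of complex III, 19 of complex IV, 17 of ATP synthase and 10 assembly factors. These counts follow the symbols, so Ndufa4, now assigned to complex IV, and its relative Ndufa4l2 stand under complex I in all values by complex. A further 4, Cox7a2l, Cox7a2l2, Atp5s and Atp5sl, carry these symbols but were kept apart from the subunits.

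The 4 groups held 3 libraries each. Control rats received a normal diet, Control+SAMC rats a normal diet with S-allylmercaptocysteine (SAMC, an organosulfur compound of garlic), HFD rats a high fat diet, and HFD+SAMC rats a high fat diet with SAMC. The series concerns SAMC in non-alcoholic fatty liver disease. Dose, duration, sex and age are not stated in the labels, and nothing says that the samples of a group came from separate animals, so the p-values reflect only how far these samples vary, possibly for technical reasons. HFD replicates are numbered 2, 3 and 4, and those of every other group 1, 2 and 3.

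Oxidative phosphorylation passes electrons from NADH through complex I, or from succinate through complex II, to ubiquinone, complex III, cytochrome c and complex IV, where oxygen is reduced. The proton gradient built on the way drives ATP synthase. The mitochondrial genome encodes core subunits of complexes I, III and IV and of ATP synthase and is transcribed as long polycistronic RNAs by a polymerase of its own, while all of complex II and most subunits of the other complexes come from nuclear genes. Hepatocytes are rich in mitochondria, which also oxidise the fatty acids taken up from a fat-rich diet.

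Total counts ranged from 45680738 to 61937544 per library. All 10 hepatocyte markers were detected in every library. Their summed level was 125000 to 364000 CPM (read counts scaled to library size, with TMM normalisation). Library HFD replicate 3 and library HFD+SAMC replicate 3 stood apart for the genes described here, the former in the chromosome M genes and the latter in muscle isoforms, and the ranges and comparisons that rest on them are given with and without them. The deposited RPKM of 1 gene, RGD1562465, had been computed with a gene length of 4432 bp for Control+SAMC and HFD, 6 libraries, but with 3377 bp for Control and HFD+SAMC, the other 6. The interaction of diet and SAMC therefore cannot be told apart from this division of the libraries, and each comparison of 2 groups crosses it, while the comparisons averaged over diet or over SAMC are balanced over it.

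Promoters of the isoforms and of the assembly factor on which later results turn are shown first. Each is the RefSeq sequence (GRCr8) from 250 bases before to 50 bases after the start of the gene, written 5′ to 3′ on the gene's strand. Capitals mark exact matches, on either strand, to 5 motifs searched in 2 rounds. The first round held 3 motifs of factors known for driving nuclear respiratory genes: NRF1 (10 letters), GABP (CCGGAAG) and YY1 (10 letters). The second round added 2 motifs of muscle gene regulators, MEF2 (10 letters) and an E-box (CAGCTG), after the Cox6a2 and Cox8b sequences had been read, so their presence in those genes is no independent finding.
Ndufaf4, chr5:43401545-43401844, plus strand: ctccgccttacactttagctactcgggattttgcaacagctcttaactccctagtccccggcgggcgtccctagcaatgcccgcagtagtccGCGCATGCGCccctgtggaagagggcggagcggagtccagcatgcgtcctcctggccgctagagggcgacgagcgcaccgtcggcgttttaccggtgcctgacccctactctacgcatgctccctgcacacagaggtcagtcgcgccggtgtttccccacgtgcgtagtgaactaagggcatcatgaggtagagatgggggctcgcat
Cox8a, chr1:213833574-213833873, minus strand: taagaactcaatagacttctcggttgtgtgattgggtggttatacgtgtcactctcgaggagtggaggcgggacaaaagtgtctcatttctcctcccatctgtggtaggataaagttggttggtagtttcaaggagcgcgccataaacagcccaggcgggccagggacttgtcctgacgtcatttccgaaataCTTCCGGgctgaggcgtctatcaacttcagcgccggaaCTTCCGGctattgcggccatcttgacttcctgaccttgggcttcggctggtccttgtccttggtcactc
Cox8b, chr1:205408224-205408523, minus strand: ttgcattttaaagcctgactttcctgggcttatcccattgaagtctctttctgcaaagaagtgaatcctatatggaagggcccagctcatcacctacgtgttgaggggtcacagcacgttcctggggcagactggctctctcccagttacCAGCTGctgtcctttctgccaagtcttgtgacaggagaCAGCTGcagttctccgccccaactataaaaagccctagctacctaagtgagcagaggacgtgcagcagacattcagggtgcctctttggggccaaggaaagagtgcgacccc
Cox6a2, chr1:192219667-192219966, minus strand: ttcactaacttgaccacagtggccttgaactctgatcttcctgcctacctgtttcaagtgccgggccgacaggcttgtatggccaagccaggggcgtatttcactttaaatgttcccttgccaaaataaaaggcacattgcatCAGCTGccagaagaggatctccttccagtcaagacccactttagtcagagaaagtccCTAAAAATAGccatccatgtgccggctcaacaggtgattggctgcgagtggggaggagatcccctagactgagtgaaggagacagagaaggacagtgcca

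Ndufaf4 held the NRF1 motif, Cox8a, the widely expressed isoform, held the GABP motif, Cox8b, its muscle isoform, held the E-box, and Cox6a2, another muscle isoform, held the MEF2 motif and the E-box. Among the 81 nuclear genes of the set with a RefSeq promoter, 22 (27.2%) held the GABP motif, against 8.75% of all 33469 promoters and 15.5% of the promoters of the other tested genes. The NRF1 motif was in 6 (7.41%), against 0.852% and 1.57%. The YY1 motif was in 8 (9.88%), against 0.98% and 2%. The MEF2 motif was found in Cox6a2 alone of the 81, and in 0.137% of all promoters. The E-box was in 12 (14.8%), against 15.1% of all promoters, and thus was about as frequent as elsewhere. A match is a description of the letters and not a measured binding site.

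The chromosome M genes differed in level by more than an order of magnitude, in an order that was nearly the same in every library. Levels per length are given as RPKM (reads scaled to gene length and library total), as mean ± SD over the 12 libraries. COX1, the catalytic subunit of complex IV, was highest at 8170 ± 1700 RPKM. ATP6, the proton channel subunit of ATP synthase, followed at 6360 ± 1600 RPKM, and COX3, a further core subunit of complex IV, at 5140 ± 1400 RPKM. These 3 genes held ranks 1 to 3 in all 12 libraries. CYTB, the chromosome M subunit of complex III, stood at 3830 RPKM, COX2, which takes electrons from cytochrome c, at 3650 RPKM and ND1, a core subunit of complex I, at 3600 RPKM. Neighbours among these did not keep their order, since CYTB was above COX2 in 8 libraries and COX2 above ND1 in 7.

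The remaining complex I genes were lower per length. ND2 stood at 2870 RPKM, ND4L at 1310 RPKM, ND5 at 1020 RPKM, ND6 at 753 RPKM, ND3 at 508 RPKM and ND4 at 163 RPKM. ATP8, the small partner of ATP6, stood at 1750 RPKM. ND4 was the lowest in all 12 libraries. It overlaps ND4L on the same strand by 7 bases, and whether reads of ND4 were lost in counting was not tested. ATP8 and ATP6 overlap by 43 bases, ATP6 and COX3 by 1 base, and ND5 and ND6, on opposite strands, by 23 bases. Because the strand setting of the counting is not given, reads of ND6, the only one of these 13 genes on the minus strand, cannot be told from those of its partner strand.

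**Figure D1:**
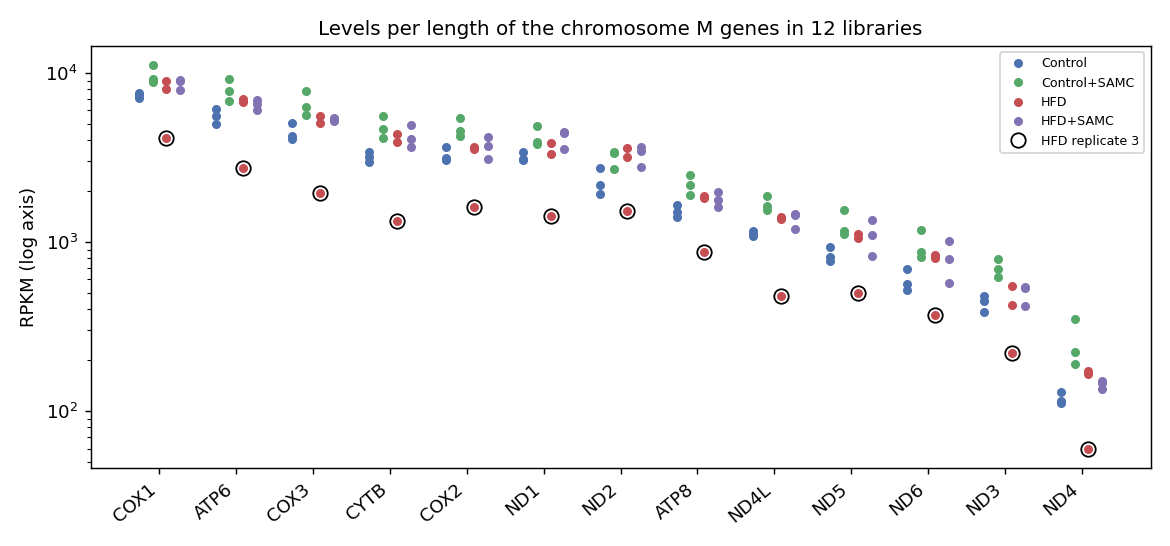
RPKM (log axis) of the 13 chromosome M genes, ordered by their mean, with 1 point per library coloured by group and HFD replicate 3 circled. COX1, ATP6 and COX3 lead and ND4 is lowest in every library, and the circled library is the lowest point of each gene.

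By their medians, the nuclear subunits were lower per length than the chromosome M subunits of the same complex. Single genes could differ, as the nuclear Ndufa11, at 208 RPKM, stood above ND4, at 163 RPKM. Medians over genes were taken from those that passed the filter on low counts. In complex I the median of the mean level was 1020 RPKM for 7 chromosome M genes and 56.4 RPKM for 35 of 38 nuclear genes. In complex IV it was 5140 RPKM for 3 genes against 163 RPKM for 12 of 16, and in ATP synthase 4060 RPKM for 2 genes against 190 RPKM for 15. CYTB, at 3830 RPKM, set against a median of 99.4 RPKM for 8 nuclear genes of complex III. Complex II, wholly nuclear, had the narrowest spread, from 83.1 RPKM for Sdhd, a membrane anchor, to 115 RPKM for Sdhb, the iron-sulfur subunit.

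Atp5b, the catalytic beta subunit of ATP synthase, had the highest nuclear level at 614 RPKM, and Atp5f1 the lowest of that complex at 15.6 RPKM. Cox4i1, the general isoform of subunit 4, led complex IV at 387 RPKM, while Cox4i2, its low-oxygen and lung isoform, stood at 0.126 RPKM, the lowest of those that passed the filter on low counts. Uqcrfs1, the Rieske iron-sulfur protein, led complex III at 139 RPKM and Uqcrb was lowest at 13.1 RPKM. Ndufa11 led the nuclear complex I genes at 208 RPKM and Ndufa10l1, at 3.86 RPKM, was the lowest of those that passed the filter. The 10 assembly factors, which help build the complexes without being part of them, had a median of 6.63 RPKM.

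Some genes of the set were barely counted. Of the 108, 101 passed the filter on low counts, all 13 of chromosome M and 88 of 95 nuclear genes. The other 7 were Cox6a2, Cox7a1, Cox7b2, Cox8c, Ndufa1, Ndufa4l2 and Ndufs6. Cox7b2 and Cox8c, testis isoforms of complex IV, had 0 counts in all 12 libraries. The row named Ndufs6 had 1 to 13 counts per library and corresponds to Ndufs6-ps1, a pseudogene name, in RefSeq. A row outside the rule, LOC679739, which RefSeq names Ndufs6, had 566 to 900 counts, so the low value of Ndufs6 describes that row and not the subunit. Cox7a1 had 0 to 7 counts and the row named Ndufa1 1 to 13. Whether reads of Ndufa1 were lost in counting was not tested, so its low value also describes the row and not the subunit.

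The level of the chromosome M genes varied more between libraries than that of the nuclear genes. Of all counts, the chromosome M genes took 3.17%, 3.53% and 3.1% in Control replicates 1, 2 and 3, and 5.3%, 4.06% and 4.4% in Control+SAMC replicates 1, 2 and 3. They took 4.09%, 1.69% and 3.83% in HFD replicates 2, 3 and 4, and 4.33%, 3.6% and 4.12% in HFD+SAMC replicates 1, 2 and 3. All Control+SAMC libraries were above all Control libraries, and HFD replicate 3 was below every other library. The means were 3.27 ± 0.23% in Control, 4.59 ± 0.64% in Control+SAMC, 3.2 ± 1.3% in HFD and 4.02 ± 0.37% in HFD+SAMC (SD, n = 3 each). The nuclear genes took 0.632% to 0.893% of counts.

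On the TMM-scaled scale, the summed chromosome M level ran from 14300 to 51100 CPM, a 3.57-fold range with a coefficient of variation of 24.4%. Without HFD replicate 3 it ran from 32700 to 51100 CPM, a 1.56-fold range with a coefficient of variation of 14.4%. The summed nuclear level ran from 7130 to 8520 CPM, a 1.19-fold range with a coefficient of variation of 5.57%, or 5.12% without that library. Gene by gene, the highest library was 2.67 to 6.61 times the lowest for the chromosome M genes, with a median of 3.8, and 1.46 to 2.89 times, with a median of 1.76, without HFD replicate 3. The median was 1.53 for the 87 tested nuclear genes counted in every library, 75 of which stayed under 2. The chromosome M genes also varied more as a set. The SD between replicates of their median log2 deviation from each gene's mean, pooled over the groups, was 0.45. It was 0.09 for the nuclear genes, whose median was taken over more genes. Without HFD replicate 3 these SDs were 0.17 and 0.08.

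**Figure D2:**
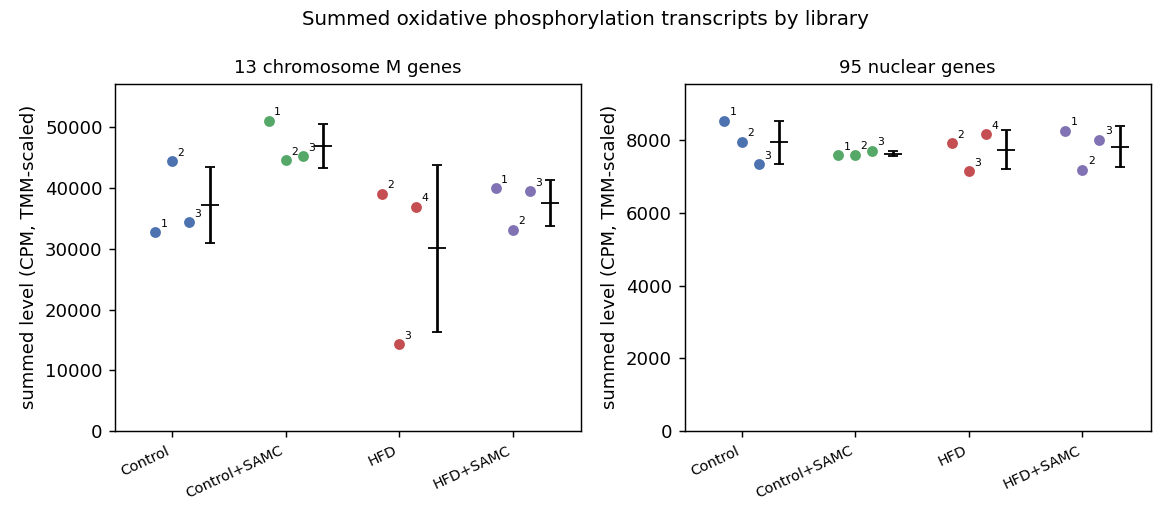
Summed TMM-scaled CPM per library of the 13 chromosome M genes (left) and the 95 nuclear genes (right), with replicate numbers beside the points and bars for mean ± SD (n = 3). HFD replicate 3 has 14300 CPM on the left, below all others, while the nuclear sums lie between 7130 and 8520 CPM.

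The ratio of chromosome M to nuclear counts, which does not depend on the library total, was 3.84, 5.59 and 4.69 in Control and 6.74, 5.87 and 5.88 in Control+SAMC. It was 4.94, 2.01 and 4.53 in HFD and 4.85, 4.62 and 4.93 in HFD+SAMC. Control+SAMC was above the other 9 libraries without overlap, and the HFD+SAMC values lay inside the Control range. The mean ratio was 6.16 ± 0.5 in Control+SAMC, 4.71 ± 0.87 in Control, 3.83 ± 1.6 in HFD and 4.8 ± 0.16 in HFD+SAMC (SD, n = 3 each). Without HFD replicate 3 the HFD mean was 4.73.

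All 13 chromosome M genes had their lowest CPM in HFD replicate 3, at 0.271 to 0.411 times the median of the other 11 libraries. Of the 88 nuclear genes, 1 was under 0.5 times that median, against 5.83% of all 15916 tested genes, and the nuclear median ratio was 0.937. Smaller shifts of the nuclear genes were more frequent in this library. It held the lowest CPM of 31 of the 88, against 1 to 16 in each other library, and the highest of 9. Within 0.5 log2 of their own mean were 74 of the 88, against 82 to 87 in each other library. These counts were not taken over all tested genes, so whether they are particular to the set is not known. The 2 ribosomal RNAs of chromosome M, which the library preparation was meant to remove, were at 0.803 (Rnr1) and 0.891 (Rnr2) times the median of the others. Coding counts of chromosome M were 38.3 times its ribosomal counts in this library, 60 times in HFD replicate 4 and 75.4 to 121 times in the others. The summed level of 10 hepatocyte markers was lowest in HFD replicate 3, at 125000 CPM, against 147000 to 167000 CPM in the other HFD libraries. The summed level of 11 Kupffer cell and macrophage markers was highest there, at 1060 CPM against 824 and 1000 CPM. So was that of 9 stellate cell and fibroblast markers, at 426 CPM against 293 and 302 CPM. Single markers went both ways. Against HFD replicates 2 and 4, Clec4f was at 323 CPM against 244 and 272 CPM, but Cd68 at 29.6 CPM against 45.5 and 37.7 CPM. Col3a1 was at 228 CPM against 112 and 136 CPM, but Dcn at 2.84 CPM against 7.51 and 6.49 CPM. These are cell type markers of both lists. The part of the cell type markers in the chromosome M values was not tested, and in whole liver fewer cells of a type and less RNA per cell cannot be told apart.

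At the other end, 12 of 13 chromosome M genes were highest in Control+SAMC replicate 1, and ND2 was highest in Control+SAMC replicate 3. Control+SAMC replicate 1 also had the highest summed level of 6 erythroid markers, 1760 CPM, against 326 to 854 CPM in the other 11 libraries. The part of these markers in the chromosome M values was not tested. Control+SAMC replicates 2 and 3 had 531 and 456 CPM of erythroid markers, inside the range of the other groups, and chromosome M shares of 4.06% and 4.4%.

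High fat diet alone, set against the normal diet, gave no member past the threshold. In HFD against Control, edgeR's quasi-likelihood test called 0 of 101 members at an adjusted p under 0.05, where 0.145% of all tested genes were called. DESeq2 also called 0 members, with 2.07% of genes called. Without adjustment, 4 nuclear genes and 0 chromosome M genes were under 0.05, with 10.7% of all genes. The chromosome M genes had a median log2 fold change of -0.30 and all 13 were lower, while the nuclear genes had a median of -0.05 and all tested genes a median of 0. The chromosome M median changed with single libraries. Without HFD replicate 3 it was 0.05, with 8 genes higher and 5 lower, and without Control replicate 2 it was -0.14. Without HFD replicate 2 or HFD replicate 4 it was -0.48 or -0.49.

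HFD+SAMC against HFD showed the reverse sign. No member was called by edgeR (background 0.0503%) or by DESeq2 (background 1.6%), and 4 nuclear genes were under an unadjusted p of 0.05 (background 10.6%). The 13 chromosome M genes were all higher, with a median log2 fold change of 0.29. Without HFD replicate 3 the median was -0.03, with 2 genes higher and 11 lower, and it was 0.50 without HFD replicate 2 and 0.46 without HFD replicate 4. These comparisons share the HFD libraries.

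SAMC on a normal diet went with higher chromosome M values, but no member passed edgeR's test in Control+SAMC against Control (background 0.119%). All 13 chromosome M genes were higher, with a median log2 fold change of 0.40, from 0.25 for ND1 to 0.94 for ND4. COX1 was at 11800, 14700 and 12100 CPM in Control and at 16500, 14900 and 14600 CPM in Control+SAMC. The groups of COX1 overlapped, with a log2 fold change of 0.26 ± 0.28 (SE) and an edgeR adjusted p of 0.834. ATP6 was at 3930, 5200 and 3770 CPM in Control and at 6020, 5110 and 5490 CPM in Control+SAMC, so that Control replicate 2 lay inside the Control+SAMC range. Its log2 fold change was 0.37 ± 0.32, with an edgeR adjusted p of 0.773. ATP8 had the same log2 fold change, 0.37 ± 0.27, from 319, 426 and 316 CPM to 490, 426 and 454 CPM.

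ND4, a subunit of the proton-pumping arm of complex I and the lowest of the 13 per length, had the smallest p among them. It was at 160, 223 and 174 CPM in Control and at 463, 289 and 319 CPM in Control+SAMC, without overlap. The log2 fold change was 0.94 ± 0.36, with an edgeR adjusted p of 0.42. ND4 also took a larger share of chromosome M counts in Control+SAMC, 0.905%, 0.649% and 0.703%, than in the other 9 libraries, 0.481% to 0.621%. The share of ND4L, which overlaps ND4, differed less between groups. Its mean was 1.09 ± 0.042% in Control+SAMC, 1.02 ± 0.04% in Control, 0.973 ± 0.11% in HFD and 1.01 ± 0.028% in HFD+SAMC (SD, n = 3 each). Because a loss of ND4 reads in counting was not tested, the ND4 values in all comparisons describe the row and not the subunit. Groups did not overlap for 5 chromosome M genes, COX2, CYTB, ND3, ND4 and ND4L, all higher, where 7.03% of all tested genes were higher without overlap. The smallest edgeR adjusted p of the 13 was 0.42, and 0.124 without HFD replicate 3.

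**Figure D3:**
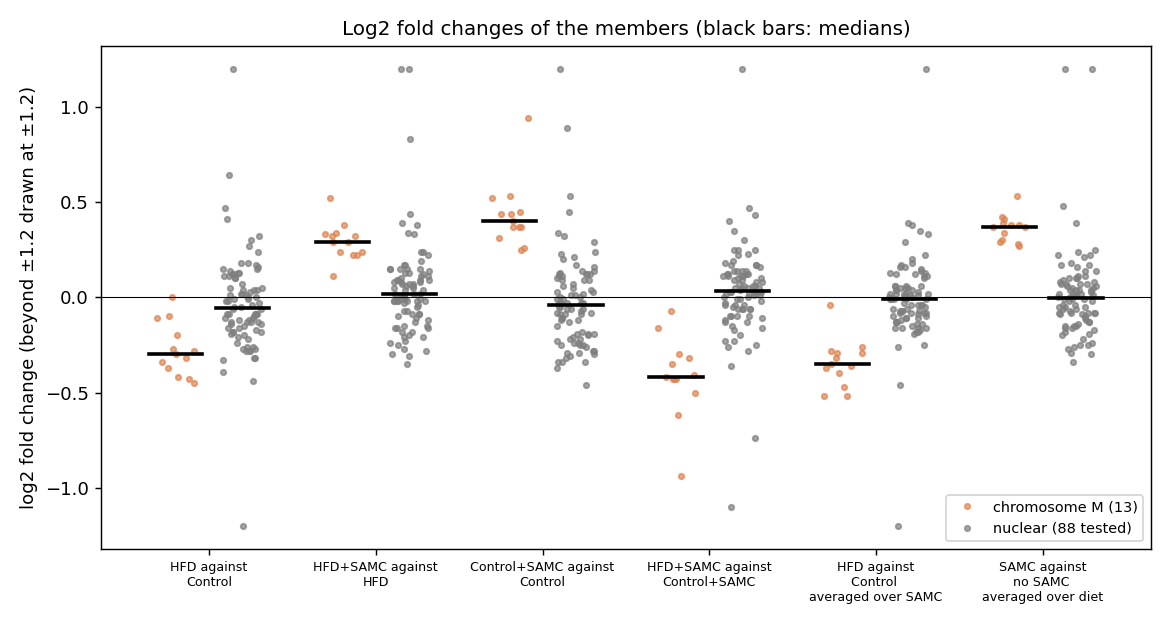
Log2 fold changes of the tested members in 6 comparisons, with the 13 chromosome M genes in orange, the 88 nuclear genes in grey and black bars for medians. Points beyond ±1.2 are drawn at that value. The chromosome M medians lie between -0.42 and 0.40 while the nuclear medians lie between -0.05 and 0.03.

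The comparison of diets under SAMC had the opposite sign. In HFD+SAMC against Control+SAMC all 13 chromosome M genes were lower, with a median log2 fold change of -0.42. For 8 of them, ATP6, ATP8, COX1, COX2, COX3, ND3, ND4 and ND4L, the groups did not overlap (8.54% of all tested genes were lower without overlap). COX1 was at 12800, 11300 and 13400 CPM in HFD+SAMC, all below Control+SAMC, with a log2 fold change of -0.30 ± 0.28 and an edgeR adjusted p of 0.772. ND4, at 192, 172 and 194 CPM, had -0.94 ± 0.36 and an edgeR adjusted p of 0.382. No member was called by edgeR (background 0.0628%) or DESeq2 (background 1.71%). This comparison shares the Control+SAMC libraries with the previous one.

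Averaged over SAMC, the diet contrast had a chromosome M median of -0.35, with 13 lower and 0 called by edgeR (background 0.421%) or DESeq2 (background 3.39%). COX2 and ND3 were under an unadjusted p of 0.05, with log2 fold changes of -0.47 ± 0.21 and -0.52 ± 0.21 and edgeR adjusted p-values of 0.353 and 0.301, where 13.6% of all tested genes were under 0.05. No member's 6 high fat libraries lay wholly above or wholly below the 6 others (background 0.578% and 0.503%). Without HFD replicate 3 the median was -0.18. Cell type markers were also read in this contrast. Of 6 adipocyte markers 2 were tested, Cidea and Fabp4, and both were higher. Only Cidea was called by edgeR, with an adjusted p of 0.00514. Fabp4 was highest in HFD+SAMC replicate 3, at 7.55 CPM. Adipoq, an adipocyte marker that was not tested, was at 0 CPM in all 3 HFD libraries. It reached 2.92 CPM in Control replicate 3 and 0.898 CPM in HFD+SAMC replicate 3. No marker of the other cell type lists was called. All 6 erythroid markers were lower, 6 of them under an unadjusted p of 0.05 in edgeR, with a median log2 fold change of -1.03, and their summed level was 326 to 632 CPM in the high fat groups and 456 to 1760 CPM in the others. All 10 hepatocyte markers were lower (5 under an unadjusted 0.05 in edgeR, median -0.41), with sums of 125000 to 167000 CPM against 147000 to 364000 CPM. All 11 Kupffer cell and macrophage markers were higher (6 under 0.05, median 0.38), with sums of 699 to 1060 CPM against 506 to 841 CPM. Their part in the chromosome M difference was not tested.

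Averaged over diet, the SAMC contrast had a chromosome M median of 0.37, with 13 higher and 0 called by edgeR (background 0.22%), and 0.19 without HFD replicate 3, with 13 higher. Cell type markers differed here too. Of 6 sinusoidal endothelial markers 4 were lower and 2 higher, and 1 was called lower by edgeR (adjusted p of 0.0297). All 4 cholangiocyte markers were higher, with a median of 0.58. Of 10 hepatocyte markers 7 were lower and 3 higher, with a median of -0.36. The part of these markers was not tested. The interaction of diet and SAMC had a chromosome M median of -0.11, with 2 higher, 11 lower and 0 members called (background 0.145% by edgeR and 0.807% by DESeq2) and 0 members without overlap (background 0.119% higher and 0.653% lower), and its sign changed with single libraries: it was -0.46 when HFD replicate 3 was left out, 0.13 when replicate 2 of that group was, and 0.12 when its replicate 4 was. On simulated counts for HFD against Control with the real libraries' means, the edgeR test found 38.8% of genes changed by log2 1 and 66.7% of genes changed by log2 2. Changes under log2 1, the size of the chromosome M medians, were not simulated.

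Among the nuclear genes, small accessory subunits of complex I had the smallest p-values in the SAMC comparisons. Ndufb2 was at 28.5, 28.6 and 26.5 CPM in Control and at 19.3, 21.1 and 20.5 CPM in Control+SAMC, and at 24.7, 21.9 and 26.6 CPM in HFD and 22.2, 21 and 22.9 CPM in HFD+SAMC. The normal-diet groups did not overlap and the high fat groups did. In Control+SAMC against Control its log2 fold change was -0.46 ± 0.11 with an edgeR adjusted p of 0.191. Averaged over diet it was -0.30 ± 0.08 with an edgeR adjusted p of 0.137. DESeq2 called Ndufb2 in both, with adjusted p-values of 0.0163 and 0.0172, where it called 1.38% and 2.75% of genes.

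Ndufa3, another accessory subunit of complex I, was at 27.1, 29.1 and 25.2 CPM in Control and 21, 20.8 and 21 CPM in Control+SAMC. It was at 22.5, 22.2 and 22.7 CPM in HFD and 20.9, 18.1 and 21.2 CPM in HFD+SAMC, so that Control lay above all other groups and, on each diet, SAMC lay below no SAMC. Averaged over diet, the log2 fold change was -0.27 ± 0.07, with an edgeR adjusted p of 0.172 and a DESeq2 adjusted p of 0.0362. Ndufb11, an accessory membrane subunit of complex I encoded on chromosome X, was at 78.2, 77.5 and 76.3 CPM in Control and 58.9, 65.2 and 66.8 CPM in Control+SAMC. It was at 70.4, 84.5 and 75.5 CPM in HFD and 66.4, 60.2 and 69.4 CPM in HFD+SAMC. All 6 SAMC libraries were below all 6 others, with a log2 fold change of -0.26 ± 0.08 and an edgeR adjusted p of 0.208. Ndufa3 and Ndufb11 were the 2 nuclear genes with this lack of overlap, in which 0.383% of all tested genes were lower. No member was higher in this way (background 0.572%).

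In Control+SAMC against Control, 19 nuclear genes were lower and 4 higher without overlap, where 6.51% and 7.03% of all tested genes were. The 19 included Atp5e, Atp5g2 and Atp5l of ATP synthase, Cox4i1, Cox5b, Cox6a1 and Cox8a of complex IV, Uqcr11 and Uqcrq of complex III, Sdhd of complex II and 9 genes with complex I symbols, Ndufa4 among them. The 4 that were higher were Atp5g1, Atp5o, Sdhc and Ndufaf4. Unadjusted, 9 nuclear genes were under 0.05 in edgeR, 8 of them lower (background 9.78%), and averaged over diet 15 were, 11 of them lower (background 12.4%).

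The lower values lay mostly in short genes. Of the 44 tested nuclear genes of at most 794 bp, the median length, 31 were lower in Control+SAMC against Control, with a median log2 fold change of -0.11, while 54.1% of all tested genes that short were lower, with a median of -0.05. Of the 44 longer genes 20 were lower, with a median of 0.01. The part of gene length in these differences was not tested.

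**Figure D4:**
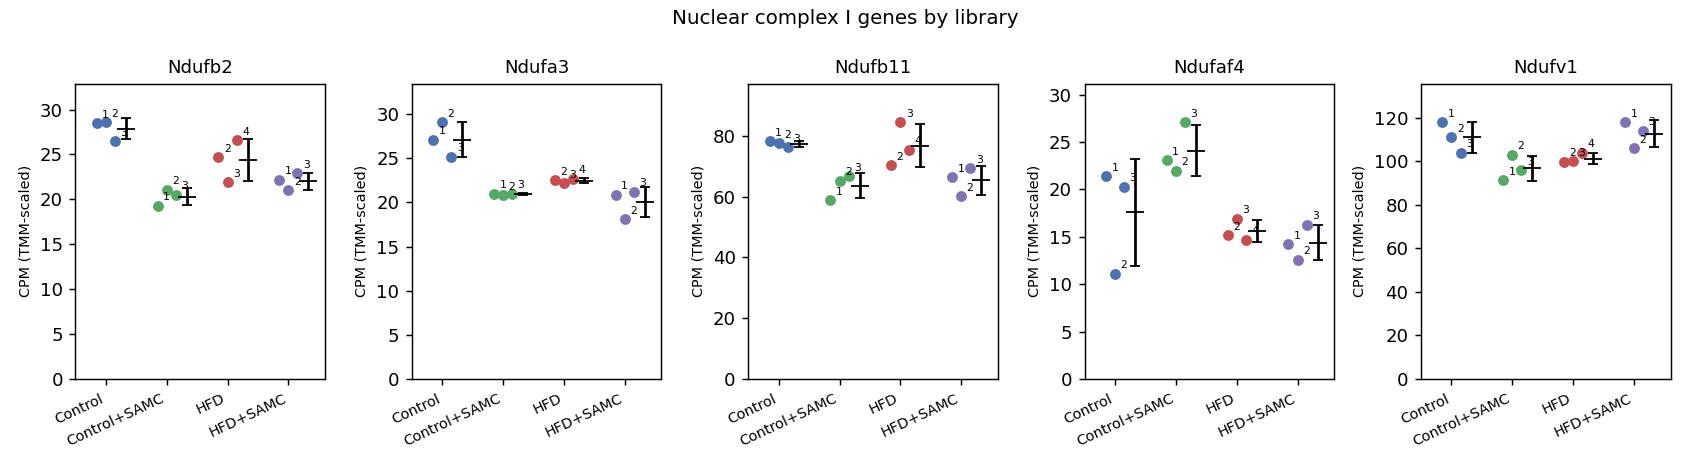
CPM by library of 5 nuclear complex I genes (Ndufaf4 is an assembly factor), with replicate numbers beside the points and bars for mean ± SD (n = 3). Ndufb2 and Ndufa3 are highest in Control, Ndufb11 is lower in both SAMC groups, and Control replicate 2 of Ndufaf4, at 11.1 CPM, lies below its other Control libraries.

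The assembly factors within the set had a different sign. Averaged over diet, all 10 were higher with SAMC, with a median log2 fold change of 0.17 against 0 over all tested genes, and 1 was under an unadjusted p of 0.05 (background 12.4%). Of all 15916 tested genes 7823 were higher. Of 33 assembly factors outside the rule, 20 were higher and 13 lower in this contrast, with a median of 0.03. Ndufaf4, which acts in building the peripheral arm of complex I, was at 21.4, 11.1 and 20.3 CPM in Control, 23.1, 22 and 27.1 CPM in Control+SAMC, 15.2, 16.9 and 14.7 CPM in HFD and 14.2, 12.6 and 16.3 CPM in HFD+SAMC. Apart from Control replicate 2, the normal-diet libraries were above the high fat libraries. Its log2 fold change in HFD+SAMC against Control+SAMC was -0.74 ± 0.21, with an edgeR adjusted p of 0.245. Without Control replicate 2 the edgeR adjusted p was 0.0473 in that comparison, at -0.75 ± 0.13. For the diet averaged over SAMC the log2 fold change was -0.46 ± 0.15 with all libraries (edgeR adjusted p of 0.205) and -0.59 ± 0.10 without Control replicate 2 (edgeR adjusted p of 0.0268).

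Other nuclear genes with small p-values were Ndufa12, a complex I accessory subunit, and Atp5sl. Ndufa12 was at 3.43, 2.12 and 2.94 CPM in HFD and 5.26, 3.78 and 6.02 CPM in HFD+SAMC, a log2 fold change of 0.83 ± 0.26 with an edgeR adjusted p of 0.307. Atp5sl, an assembly factor of the complex I membrane arm that RefSeq names Dmac2, was at 20.6, 19.3 and 25.4 CPM in HFD and 29.6, 29.4 and 26.4 CPM in HFD+SAMC, a log2 fold change of 0.39 ± 0.14 with an edgeR adjusted p of 0.375. Without overlap, 6 nuclear genes were higher and 5 lower in HFD+SAMC against HFD (background 9.4% and 9.41%), 2 and 7 in HFD against Control (background 8.27% and 6.44%), and 7 and 6 in HFD+SAMC against Control+SAMC (background 9.27% and 8.54%).

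The tissue isoforms of complex IV separated 1 library from the others. Cox6a2, the heart and skeletal muscle isoform of subunit 6a, had 1055 counts in HFD+SAMC replicate 3, which is 16.3 CPM, and 0 or 1 count in each of the other 11. Cox8b, the muscle isoform of subunit 8, had 559 counts there, which is 8.65 CPM, 51 in HFD replicate 2, 13 in HFD replicate 4, 11 in HFD+SAMC replicate 2 and 1 to 4 in the rest. The general isoforms Cox6a1 and Cox8a stood at 142 to 189 CPM and 90.3 to 139 CPM. Cox7a1, another muscle isoform, had 6 counts in HFD+SAMC replicate 3 and 7 in HFD+SAMC replicate 1. The 15 skeletal muscle markers summed to 1320 CPM in that library, with 0 of 15 at 0 counts, against 0.859 to 2.18 CPM elsewhere with 4 to 10 at 0. Acta1, skeletal muscle actin, was at 440 CPM and Ckm, the muscle creatine kinase, at 162 CPM. The averaged diet contrast of Cox8b, 4.69 ± 1.37 with an edgeR adjusted p of 0.185, includes this library, and was 2.27 ± 0.82 with an edgeR adjusted p of 0.352 without it. The part of muscle RNA in the other members' values of this library was not tested.

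Ndufa10l1, a row on chromosome 6 (62796951 to 62798384, minus strand, in the table's unnamed build) named as like Ndufa10, was either near 0 or near the level of other low subunits. It was at 0.0572, 13.6 and 0.0449 CPM in Control, 12, 12.9 and 12.5 CPM in Control+SAMC, 0.129, 0.0614 and 0.0187 CPM in HFD and 17.5, 0.0157 and 0.0155 CPM in HFD+SAMC. Control replicate 2, all 3 Control+SAMC libraries and HFD+SAMC replicate 1 were thus high, and the other 7 had 1 to 7 counts. Among genes of at least 1 CPM in each of the high libraries, no other gene had each of these 5 libraries at least 10 times above each of the other 7, and 0 had the reverse. Ndufa10 itself, a complex I subunit, was at 80.5 to 111 CPM. Reads of such similar copies may be split or lost in counting, and the pattern was chosen for description after its values were seen.

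**Figure D5:**
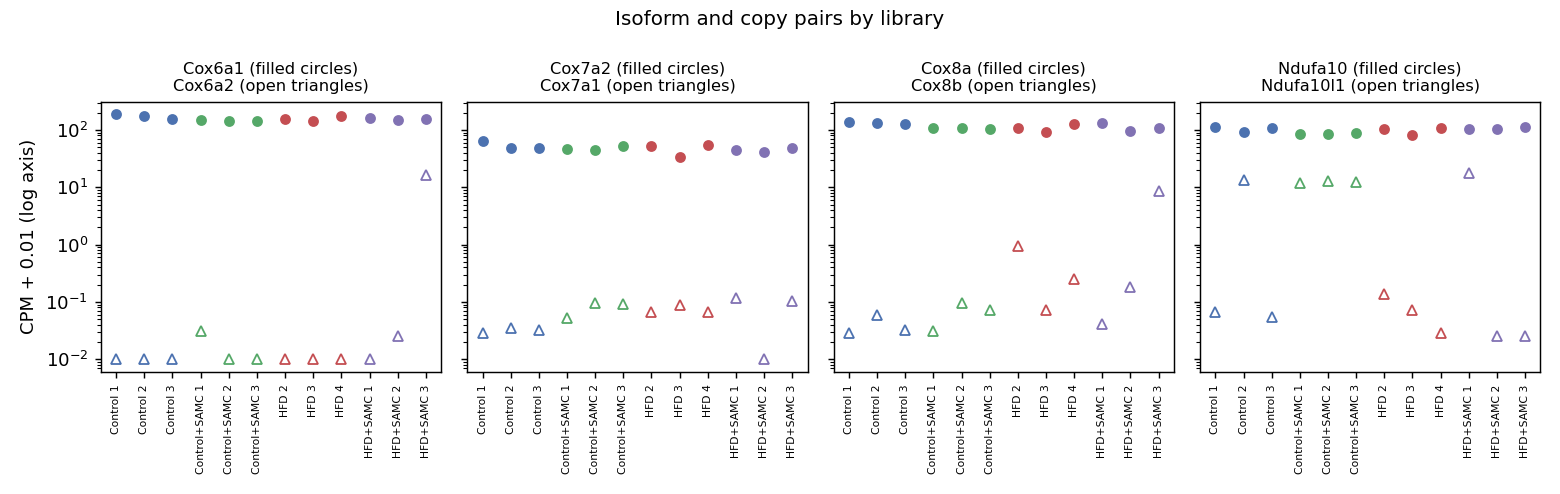
CPM + 0.01 (log axis) per library, coloured by group, for 3 isoform pairs of complex IV and for Ndufa10 with Ndufa10l1. The muscle isoforms Cox6a2 and Cox8b stand out in HFD+SAMC replicate 3, at 16.3 and 8.65 CPM, and Ndufa10l1 takes high values in 5 libraries and low values in 7.

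Other genes of mitochondrial function were read from lists of assembly factors outside the rule, coenzyme Q synthesis, electron carriers, biogenesis regulators, mitochondrial DNA replication, mitochondrial transcription, the mitochondrial ribosome, carriers, protein import and the tricarboxylic acid cycle. Across these lists and all 7 contrasts, Mrps27, a protein of the small mitochondrial ribosomal subunit, was the only gene past edgeR's threshold. Mrps27 was at 15.4, 17.3 and 15.8 CPM in Control and 14.9, 18.2 and 15.9 CPM in HFD. It was at 29.8, 27.6 and 25.6 CPM in Control+SAMC and 24.6, 25.4 and 27.8 CPM in HFD+SAMC, so that all 6 SAMC libraries were above all 6 others. Mrps27 rose with SAMC averaged over diet by 0.72 ± 0.08 on the log2 scale (edgeR adjusted p of 0.00498), and on the normal diet by 0.77 ± 0.12 (edgeR adjusted p of 0.0296). With the replicate block the edgeR adjusted p was 0.056 and 0.126 in turn, and with only the 2 normal-diet groups in the fit the second was 0.243. In HFD+SAMC against HFD its log2 fold change was 0.67 ± 0.12 with an edgeR adjusted p of 0.0689. The averaged call held without each library in turn, with adjusted p-values from 0.00608 to 0.04. The call on the normal diet was lost without any 1 of 8 libraries, all 3 Control, Control+SAMC replicates 1 and 2 and all 3 HFD+SAMC, with adjusted p-values up to 0.22.

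The other 73 tested genes of the mitochondrial ribosome did not pass, and the list's median log2 fold change with SAMC averaged over diet was 0.03, with 42 higher and 32 lower. The 23 genes of mitochondrial transcription and RNA handling had 20 higher and 3 lower in the same contrast, with a median of 0.13 and 0 called. The 14 genes of the tricarboxylic acid cycle had 12 higher and 2 lower, with a median of 0.16 and 0 called. Gpd2, which feeds electrons from glycerol 3-phosphate into ubiquinone, had the smallest p of the electron carriers. It was at 16, 13.7 and 18.3 CPM in Control, 13.1, 9.33 and 8.91 CPM in Control+SAMC, 25.4, 18.7 and 17.9 CPM in HFD and 13.8, 10.2 and 8.42 CPM in HFD+SAMC, below the no-SAMC group on each diet. Its log2 fold change averaged over diet was -0.77 ± 0.16 with an edgeR adjusted p of 0.0739.

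Among the biogenesis regulators, Ppargc1a, the coactivator that drives mitochondrial gene programs, was at 8.18, 2.79 and 5.85 CPM in Control and 2.57, 1.73 and 3.85 CPM in HFD. Its log2 fold change there was -1.05 ± 0.36 with an edgeR adjusted p of 0.319, and the groups overlapped. It was at 5.81, 7.75 and 7.54 CPM in Control+SAMC and 4.8, 4.77 and 5.03 CPM in HFD+SAMC. Prkaa1, a catalytic subunit of AMP-activated kinase, was at 11.1, 8.84 and 10.2 CPM in Control and 13.7, 18.6 and 16.7 CPM in Control+SAMC, a log2 fold change of 0.70 ± 0.15 with an edgeR adjusted p of 0.14.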

How the data were processed

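Total RNA of 12 rat liver samples was depleted of ribosomal RNA and sequenced as paired reads, per the labels' protocols. Reads were trimmed with Trimmomatic 0.36, per the submitters' processing notes. The deposited table holds read counts per gene, made by the authors with HISAT2 and HTSeq per the labels, and deposited RPKM values. No source used here gives the genome build, annotation release or strand setting.

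The tests used edgeR 4.0.16 and limma 3.58.1 under R 4.3.3, on the counts. The filterByExpr function kept 15916 genes, holding 99.96% of counts. All 12 libraries entered 1 robust quasi-likelihood fit with TMM scaling and 8 residual degrees of freedom (common biological coefficient of variation 0.299), two-sided, with Benjamini-Hochberg adjustment over all tested genes and a threshold of 0.05. Tests were checked on simulated counts. Promoters were searched for 5 motifs in 2 rounds, 3 in the first and 2 added after promoter sequences had been read. RPKM served for levels between genes. DESeq2 1.42.0, RLE scaling, no filter, chromosome M left out of library sizes, the compared groups alone, a replicate block, TPM and each library left out were alternatives.

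The members, lists and tests were chosen with earlier results of these data known. Named genes were all 13 chromosome M genes, any nuclear member called, the 3 nuclear members of smallest p per direction and contrast (mean log2 CPM of at least 1), isoform pairs, the highest and lowest member per complex, and up to 2 genes per list and contrast. Chi-square over its degrees of freedom was 87.2 to 650 between replicates, so no library was counted as a repeat of another.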

Additional observations from a re-analysis of the deposited data

Results flagged for a closer look

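Ndufv1, the NADH-binding flavoprotein subunit of complex I, differed between the diets in its direction with SAMC. All Control+SAMC libraries (91.3, 103 and 96 CPM) were below all Control libraries (118, 111 and 104 CPM), and all HFD+SAMC libraries (118, 106 and 114 CPM) were above all HFD libraries (99.8, 100 and 104 CPM). The difference itself, the interaction of diet and SAMC, was 0.35 ± 0.15 on the log2 scale with an edgeR adjusted p of 0.646, and it cannot be told apart from the division of the libraries seen in the RPKM lengths.

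Members left out of the test by the filter on low counts still held counts in HFD+SAMC replicate 3. Cox6a2 had 1055 counts there against at most 1 elsewhere. Ndufa4l2, a relative of a complex IV subunit, had 13 counts there, 7 in HFD+SAMC replicate 1 and 0 or 1 in the other 10 libraries.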

How the results depend on the processing

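Under edgeR, 0 members were called with RLE scaling, no filter, chromosome M left out of library sizes, the compared groups alone or the replicate block. DESeq2 called 1 member (Ndufb2) in Control+SAMC against Control and 2 (Ndufb2 and Ndufa3) for SAMC averaged over diet. Leaving out 1 library at a time gave 0 to 1 called members in HFD+SAMC against Control+SAMC and for the diet averaged over SAMC, the 1 being Ndufaf4 without Control replicate 2. The cause of these changes was not tested.

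The nuclear median in HFD+SAMC against HFD was 0.02 and was -0.09 with HFD replicate 3 and HFD+SAMC replicate 3 left out together, an alternative chosen after seeing the data, as were the ranges and replicate SDs given without HFD replicate 3. The diet contrast of ND2 averaged over SAMC was -0.04, ran from -0.16 (without HFD replicate 2) to 0.12 over single libraries left out, and was 0.08 without Control replicate 2, 0.12 without HFD replicate 3, 0.02 without HFD+SAMC replicate 2 and 0.10 without both libraries named above. With the 10 most counted genes left out of the total, chromosome M counts equalled 4.61% of it in Control, 5.98% in Control+SAMC, 4.1% in HFD and 5.14% in HFD+SAMC. COX1, 1 of those 10 genes, stayed in the chromosome M counts, so these values are not shares of that total. The nuclear share was 0.986%, 0.968%, 1.06% and 1.07% in Control, Control+SAMC, HFD and HFD+SAMC. The denominator is smaller by construction.

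Over 15 same-numbered pairs of samples the correlation of deviations ran from -0.22 to 0.25, with 2 over 0.1. Pairs of unlike numbers were not compared, so whether the replicate numbers pair the samples was not settled. With the replicate block, chromosome M medians were -0.56 for HFD against Control, 0.53 for HFD+SAMC against HFD, 0.44 for Control+SAMC against Control, -0.41 for HFD+SAMC against Control+SAMC and 0.20 for the interaction, where it was -0.11 without. The block also ended both Mrps27 calls, with adjusted p-values of 0.126 and 0.056.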
